A study of Rattus norvegicus with 2 samples.

Results

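Tenocytes are the fibroblasts of tendon, and in muscle digests they come from tendon and from the tendon sheets that join muscle to tendon. Here they were barcodes with a Tnmd UMI (a unique molecular identifier, which marks 1 captured transcript) and UMIs of at least 3 of 8 further tendon genes, namely Fmod, Kera, Scx, Chad, Cilp2, Comp, Mkx and Col11a1. Barcodes with a UMI of the leukocyte gene Ptprc or the endothelial gene Pecam1 were left out. This rule selected 1175 tenocytes among 21154 barcodes that had at least 500 UMIs, at least 200 genes and at most 20% mitochondrial UMIs. The SD rat library gave 538 of them and the chimera library gave 637.

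Both animals were profiled by droplet single-cell RNA sequencing of digested skeletal muscle, taken from all over the body and sorted for live cells, to ask which muscle cells the injected mouse cells formed. The SD (Sprague-Dawley) rat was the unmodified control. The chimera arose from an SD rat morula injected with mouse induced pluripotent stem cells (iPSCs) of Dmd mdx; Pax7-nGFP genotype, in which the Dmd mutation had been edited and which came from 1 edited clone. Each group was 1 animal and 1 library, the age and sex of the animals are not given in the sources used here, and no difference below has a replicate check. Intervals are exact 95% binomial intervals for shares and exact 95% Poisson intervals for summed UMIs, and they cover counting error within a library alone.

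A chimera barcode counted as rat with at most 20% of its UMIs on mouse genes, as mouse with at least 80%, and as mixed in between. By this measure the 637 chimera tenocytes were 554 rat, 41 mouse and 42 mixed cells. Of the mixed cells, 30 had under 30% mouse UMIs, 11 had 30 to 70% and 1 had over 70%. At the boundary itself, 33 rat tenocytes had 18 to 20% mouse UMIs and 18 mixed tenocytes had 20 to 22%, so the rat and mixed calls ran into each other there. On the mouse side only 2 tenocytes lay between 80 and 90%. The libraries shared 43 barcodes, and none of these was a tenocyte.

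Tendon transmits the pull of muscle to bone through parallel fibrils of collagen I. Tenocytes secrete this collagen together with small proteoglycans such as fibromodulin and keratocan (Fmod, Kera) that control how thick the fibrils grow. Scleraxis (Scx) and Mohawk (Mkx) are transcription factors that maintain the tendon program, and tenomodulin (Tnmd) is a membrane glycoprotein that is a standard mark of mature tenocytes.

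Upstream sequence is shown for 5 genes that the results below turn on, namely the gene all members had to express, a proteoglycan of the rule, a chain of collagen I, and the pair of genes (Emb and Chodl) that marked a fraction of the cells. Each is the 250 bases before the annotated gene start in RefSeq, rat build GRCr8, on the + strand, in the order Tnmd at chrX:101350182-101350431, Kera at chr7:34283850-34284099, Col1a2 at chr4:33518307-33518556, Emb at chr2:50803218-50803467 and Chodl at chr11:31140865-31141114. Capitals mark the letters CANNTG, the E-box, to which basic helix-loop-helix factors such as scleraxis bind. The motif reads the same on both strands.
Tnmd: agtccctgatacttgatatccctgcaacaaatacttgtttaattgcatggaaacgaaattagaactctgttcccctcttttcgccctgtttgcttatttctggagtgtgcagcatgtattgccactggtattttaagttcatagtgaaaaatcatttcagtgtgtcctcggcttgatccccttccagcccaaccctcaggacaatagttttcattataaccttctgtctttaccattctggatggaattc
Kera: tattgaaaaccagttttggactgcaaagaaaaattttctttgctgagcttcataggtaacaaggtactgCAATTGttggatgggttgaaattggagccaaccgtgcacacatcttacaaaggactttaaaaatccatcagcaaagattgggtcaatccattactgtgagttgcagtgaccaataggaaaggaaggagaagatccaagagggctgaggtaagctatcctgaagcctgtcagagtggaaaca
Col1a2: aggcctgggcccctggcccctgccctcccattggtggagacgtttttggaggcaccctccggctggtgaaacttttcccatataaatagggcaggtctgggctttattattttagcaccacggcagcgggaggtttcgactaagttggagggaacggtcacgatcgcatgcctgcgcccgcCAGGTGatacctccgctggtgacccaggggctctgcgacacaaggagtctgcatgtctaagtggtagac
Emb: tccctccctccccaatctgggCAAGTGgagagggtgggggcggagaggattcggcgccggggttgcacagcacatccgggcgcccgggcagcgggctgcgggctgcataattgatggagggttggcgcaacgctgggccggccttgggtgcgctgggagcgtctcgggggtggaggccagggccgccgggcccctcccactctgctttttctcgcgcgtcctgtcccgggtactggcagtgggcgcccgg
Chodl: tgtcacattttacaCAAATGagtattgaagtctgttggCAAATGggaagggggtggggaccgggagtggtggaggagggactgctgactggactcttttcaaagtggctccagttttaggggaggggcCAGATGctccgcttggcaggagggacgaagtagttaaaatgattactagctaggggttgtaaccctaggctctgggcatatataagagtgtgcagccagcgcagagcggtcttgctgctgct
The window of Tnmd held no CANNTG, those of Kera, Col1a2 and Emb held 1 each, and that of Chodl held 3. For comparison, 21936 of 33469 rat windows of the same length (65.5%) held at least 1, with a median of 1, so these counts do not set the 5 genes apart.

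The shares of tenocytes were first compared among the 3 groups of barcodes. Tenocytes made up 5.99% of SD rat barcodes (538 of 8980; 95% interval 5.51 to 6.50) and 6.54% of chimera rat barcodes (554 of 8477; 6.02 to 7.08). Among chimera mouse barcodes they made up 2.20% (41 of 1861; 1.59 to 2.98). The intervals of the rat shares overlapped, and that of the mouse share lay below both. Seen the other way, mouse cells were 6.89% of the single-species tenocytes of the chimera (41 of 595; 4.99 to 9.23), against 18% of all its single-species barcodes (1861 of 10338; 17.27 to 18.76). Their share in fibroblasts that expressed Pdgfra was 4.70% (91 of 1936; 3.80 to 5.74), and its interval overlapped that of the tenocytes. The order of the shares depended on the species limits. With limits of 10 and 90% mouse UMIs, which left 2964 rat barcodes of 8477, tenocytes were 2.02% of rat barcodes (60 of 2964; 1.55 to 2.60) and 2.54% of mouse barcodes (39 of 1535; 1.81 to 3.46). Mouse cells were then 39.4% of the single-species tenocytes (39 of 99; 29.7 to 49.7) and 34.1% of all single-species barcodes (1535 of 4499; 32.7 to 35.5), and the intervals overlapped in both of these comparisons. With species called by the majority of UMIs, the order was that of the main limits. Tenocytes were 6.21% of rat barcodes (593 of 9546) and 1.67% of mouse barcodes (44 of 2628). Mouse cells were then 6.91% of tenocytes (44 of 637) and 21.6% of all barcodes (2628 of 12174). Digestion and sorting can set such shares, and the part they played was not tested. The rule also left out 122 chimera and 45 SD rat barcodes that met it but for a Ptprc or Pecam1 UMI. Scrublet, a doublet caller, marked 9 SD rat and 7 chimera rat tenocytes and none of the 41 mouse (an upper limit of 8.60%) or 42 mixed ones. The reporter sequence EGFP, a row of the chimera table alone, had 0 UMIs in the tenocytes of that library.

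The number of tendon genes per barcode was read on both sides of the rule's threshold. The rule required Tnmd and 3 of these genes, so the values of the tenocytes here describe the selection only. Among SD rat barcodes with Tnmd and no Ptprc or Pecam1, 239 had none of the 8 genes and a median of 1 Tnmd UMI. Just outside the threshold, 41 SD rat barcodes had 2 genes with a median of 1 Tnmd UMI, and just inside it, 47 had 3 genes with a median of 3. In chimera rat barcodes these were 26 barcodes at 2 genes with a median of 2.5 Tnmd UMIs, and 39 at 3 genes with a median of 12. In mouse barcodes they were 1 barcode with 19 Tnmd UMIs and 5 barcodes with a median of 5. The counts were lowest at 2 genes in each group and, among the tenocytes, highest at 5 genes in the SD rat, at 4 and 5 genes in the chimera rat and at 7 genes in the mouse barcodes. At least 1 Tnmd UMI also occurred in cells that should lack the gene, in 8.02% of SD rat leukocytes and 5.40% of chimera rat leukocytes. The leukocytes had median depths of 7759 and 8106 UMIs against 8094 and 9506 in the tenocytes. Some leukocyte barcodes held many tendon UMIs, with up to 393 in the SD rat and 320 in the chimera over the 9 genes of the rule. After thinning every cell to 2000 UMIs, Tnmd was found in 94.5%, 94.9% and 95.1% of SD rat, chimera rat and mouse tenocytes, and in 2.95% and 2.79% of the SD rat and chimera rat leukocytes. Thinning left out 32 SD rat and 1 chimera rat tenocyte with fewer UMIs.

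**Figure D1:**
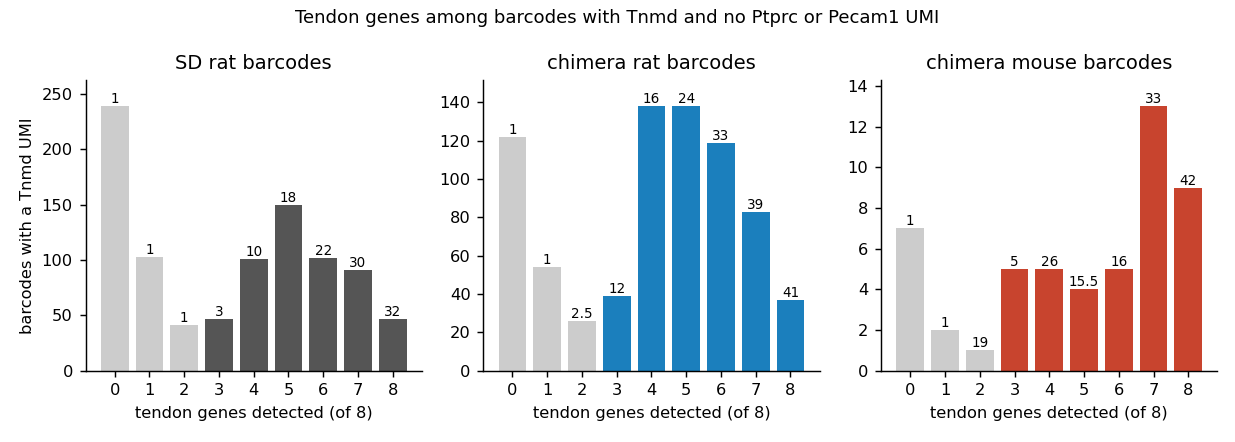
Number of barcodes with a Tnmd UMI and no Ptprc or Pecam1 UMI (y axis) by how many of the 8 tendon genes had a UMI (x axis), for SD rat, chimera rat and chimera mouse barcodes. Coloured or dark bars are tenocytes, light grey bars fell outside the rule, and the number on each bar is the median Tnmd UMI count, which was 1 for barcodes with none of the 8 genes and 32, 41 and 42 for those with all 8.

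Levels are given as UMIs summed over the cells of a group per 1000000 UMIs (CPM), with the rat and mouse rows of a gene added. The genes of the rule chose the cells, so their levels only describe them. Tnmd stood at 2997 CPM in SD rat tenocytes (2945 to 3050), 3554 CPM in chimera rat tenocytes (3501 to 3608) and 2774 CPM in mouse tenocytes (2630 to 2924). Fmod was at 4957, 4315 and 5313 CPM in the same order, and Scx at 388, 462 and 339 CPM. Kera was at 3959 and 3659 CPM in rat tenocytes and 1770 CPM in mouse tenocytes. The matrix protein genes Chad (chondroadherin) and Comp (cartilage oligomeric matrix protein) went the other way. Chad was at 404, 358 and 1217 CPM, and Comp at 528, 243 and 1332 CPM. Mkx was low throughout, at 56.6, 54.3 and 69.7 CPM. Of these genes, Fmod had a UMI in 99.1% of the tenocytes of each rat group, whereas Chad had one in 30.3% and 25.8%, so few cells carried every gene of the rule.

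To show what else set these cells apart, the rat tenocytes of each library were compared with the fibroblasts of the same library. These were barcodes with Pdgfra, Col1a1 and Dcn UMIs and without Tnmd, Ptprc or Pecam1 UMIs, 2284 in the SD rat, 1845 rat cells in the chimera and 91 mouse cells, with median depths of 11360, 12640 and 15350 UMIs. Tnmd is absent and Pdgfra is present there by choice. A gene was compared when both species have its symbol and the groups together held at least 50 UMIs, log2 ratios have 5 CPM added to each level, and a gene counted as higher or lower past 2-fold. As both groups were chosen by their expression, all of these ratios are descriptions. Of 10205 genes compared in both libraries, 301 (2.95%) were higher in tenocytes in both and 435 (4.26%) were lower in both. In the SD rat alone 3.97% of genes were higher and 4.86% lower, and in the chimera alone 3.59% and 6.03%. The median log2 ratio over all genes was -0.02 in the SD rat and -0.10 in the chimera.

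Genes outside the rule that stood highest in tenocytes included a cell-surface pair, matrix genes and secreted factors. Emb, which encodes the immunoglobulin-family membrane protein embigin, was at 545 CPM (523 to 568) in SD rat tenocytes and 477 CPM (458 to 497) in chimera rat tenocytes. In fibroblasts it was at 2.41 and 2.49 CPM, which gave log2 ratios of 6.21 and 6.01. Emb is not particular to tenocytes in muscle, since 38.6% of SD rat leukocytes had a UMI of it too. Chodl, the gene of the C-type lectin chondrolectin, was at 382 and 506 CPM against 3.13 and 3.30 CPM in fibroblasts (log2 5.57 and 5.94). Col11a2, a chain of the minor fibrillar collagen XI, was at 797 and 446 CPM against 3.94 and 2.08 CPM (log2 6.49 and 5.99). Its rows differed between species, as 29.3% of its UMIs in chimera rat tenocytes fell on the mouse row, against at most 7.88% for the 11 other genes of this group. Angptl7, a secreted angiopoietin-like protein, was at 378 and 145 CPM against 0.592 and 0.203 CPM (log2 6.10 and 4.85). Tnc, encoding the matrix glycoprotein tenascin-C, was at 737 and 746 CPM against 20.0 and 19.9 CPM (log2 4.89 and 4.91). The rest of the 12 highest genes were C1qtnf3, Kcnma1, Crabp1, Cpxm2, Mgst2, Gas2 and Col22a1, with log2 ratios from 3.90 to 4.98.

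The fibroblasts in turn held genes that tenocytes had at low levels. Smoc2, a matricellular calcium-binding protein, was at 98.1 and 93.6 CPM in SD rat and chimera rat tenocytes against 826 and 968 CPM in fibroblasts (log2 -3.01 and -3.30). The chemokine gene Cxcl14 was at 81.1 and 44.2 CPM against 724 and 706 CPM (log2 -3.08 and -3.86). The complement gene C4b was at 5.19 and 1.26 CPM against 120 and 74.9 CPM (log2 -3.62 and -3.67), and the lipid transporter gene Abca8a, Agbl1, Lrmda, Gria4 and the basement membrane collagen gene Col4a4 completed the 8 lowest. Of 9 markers of fibro-adipogenic progenitors, the interstitial fibroblasts of muscle, 8 were lower in tenocytes in both libraries, Pdgfra by construction, and only Dpp4 was higher.

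**Figure D2:**
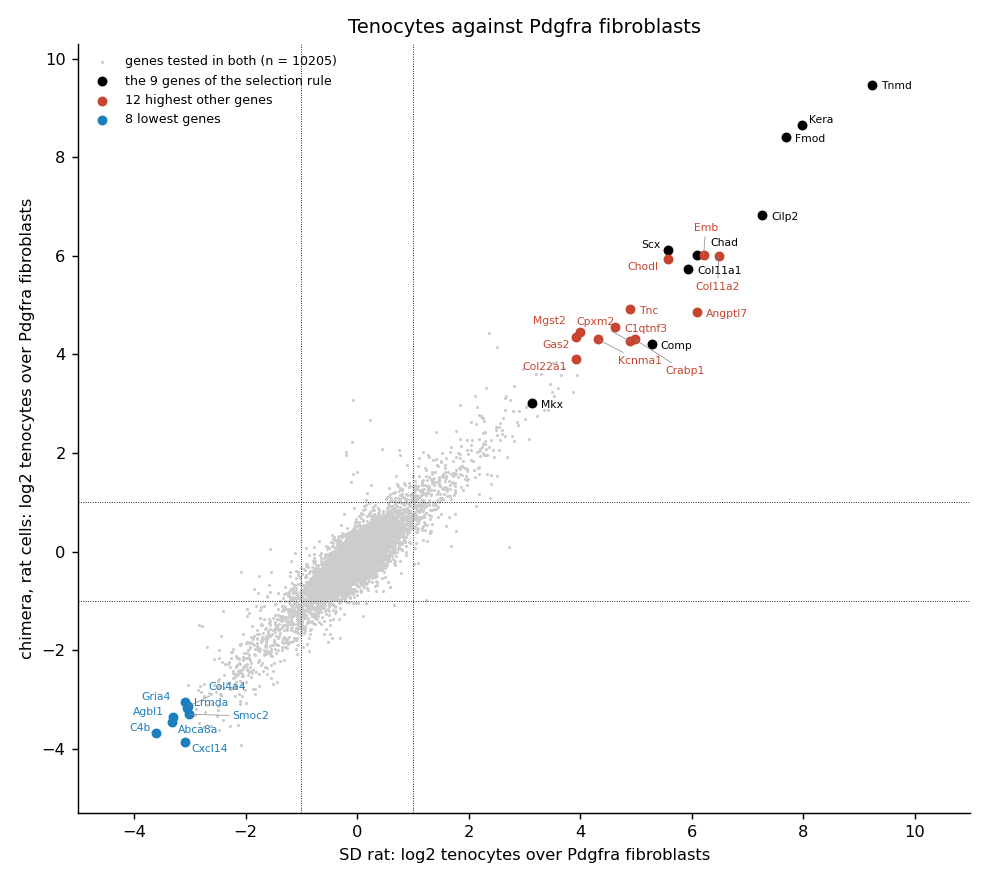
Log2 ratio of summed CPM (5 CPM added) of tenocytes over Pdgfra fibroblasts in the SD rat (x axis) and in rat cells of the chimera (y axis). Each grey point is 1 of the genes compared in both libraries, and coloured points with names are genes of the rule and the named highest and lowest genes. Emb lies at 6.21 and 6.01, among the genes of the rule, and C4b at -3.62 and -3.67.

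The lists of genes known from tendon, other than those of the rule, were then read for both libraries. Each list count from here on stands beside the shares over all genes, 2.95% higher and 4.26% lower in both libraries. Of 11 other tendon genes compared, 8 were higher in tenocytes in both libraries and 1, the protease gene Htra3, was lower, and the list's median log2 ratio was 2.78 in the SD rat and 2.35 in the chimera. Thbs4, encoding thrombospondin-4, was at 5134 and 5201 CPM in SD rat and chimera rat tenocytes against 386 and 387 CPM in fibroblasts (log2 3.72 and 3.73). Col12a1, a collagen that binds the surface of collagen I fibrils, was at 963 and 798 CPM against 136 and 152 CPM (log2 2.78 and 2.35). The carboxypeptidase-like gene Cpxm2 was at 668 and 431 CPM against 17.5 and 17.7 CPM (log2 4.90 and 4.27). The Wnt inhibitor gene Wif1 was lower in level, at 84.4 and 70.2 CPM against 2.07 and 1.27 CPM (log2 3.66 and 3.59). Thbs4 and Scx were also read in 3 sets of SD rat fibroblasts picked by other genes, of which the set with Myoc and Sfrp4 could share cells with the others. Thbs4 was at 385, 414 and 340 CPM in SD rat fibroblasts with Pi16 and Mfap5, with Smoc2 and Cxcl14, and with Myoc and Sfrp4. Scx was at 3.03, 3.46 and 3.63 CPM in those cells.

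Among 15 transcriptional regulators linked to tendon, 3 were higher in both libraries and 1 was lower. Sox6 was at 51.9 and 58.2 CPM in SD rat and chimera rat tenocytes against 4.36 and 7.16 CPM in fibroblasts (log2 2.60 and 2.38). Eya2, a transcriptional coactivator and phosphatase, was at 71.9 CPM in both groups of tenocytes against 10.5 and 14.9 CPM (log2 2.31 and 1.95), and Six2 was at 17.0 and 14.9 CPM against 1.14 and 1.68 CPM (log2 1.84 and 1.58). Tcf7l2, a marker of muscle connective tissue fibroblasts, was lower, at 81.1 and 87.3 CPM against 193 and 202 CPM (log2 -1.20 and -1.17). The list's medians of 0.27 and 0.10 lay close to those of all genes.

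Collagen genes divided by type rather than moving together. Of 9 fibrillar collagen genes outside the rule, 4 were higher in tenocytes in both libraries (Col1a1, Col1a2, Col11a2 and Col24a1) and 3 were lower (Col3a1, Col5a1 and Col5a3). Col1a1 was at 73340 and 47080 CPM in SD rat and chimera rat tenocytes against 22280 and 16360 CPM in fibroblasts (log2 1.72 and 1.53). Col1a2 followed at 42220 and 31300 CPM against 15590 and 13970 CPM (log2 1.44 and 1.16). Col3a1, the collagen of thinner and more pliant fibrils, was at 5996 and 4100 CPM against 26420 and 22930 CPM (log2 -2.14 and -2.48). The ratio of the collagen I to the collagen III genes thus differed between the cell types in both libraries. Of 13 other collagen genes, Col8a2, Col12a1, Col16a1 and Col22a1 were higher, and the basement membrane genes Col4a1 and Col4a2, Col6a6, Col14a1 and Col15a1 were lower. Col15a1, for example, was at 173 and 166 CPM against 1182 and 1302 CPM (log2 -2.74 and -2.93).

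**Figure D3:**
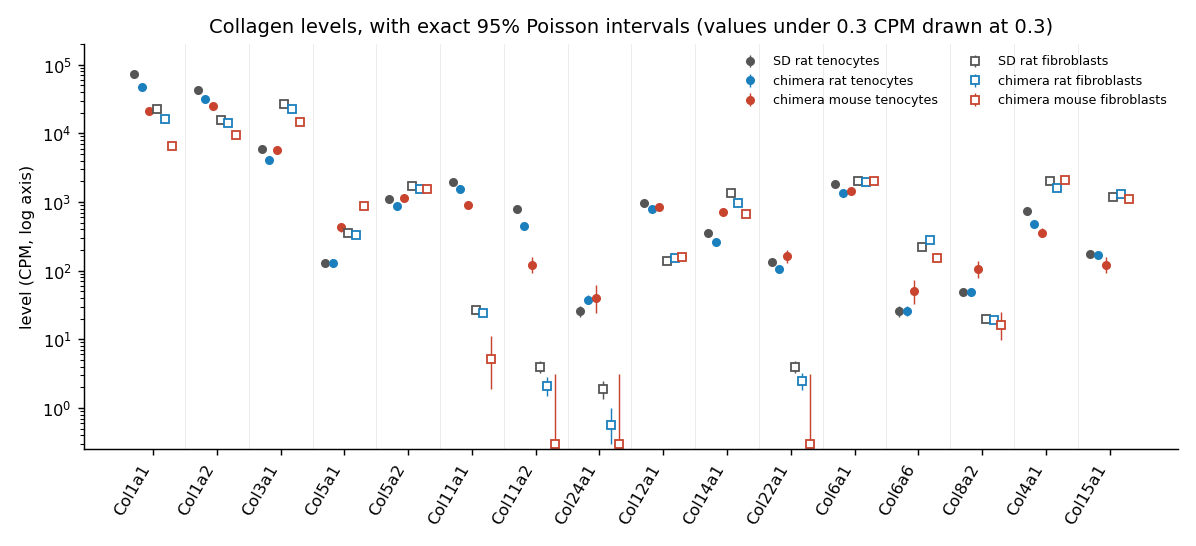
Levels of collagen genes in CPM (y axis, log scale) in tenocytes (filled circles) and Pdgfra fibroblasts (open squares) of the SD rat, of rat cells and of mouse cells of the chimera. Error bars are exact 95% Poisson intervals of summed UMIs, and values under 0.3 CPM are drawn at 0.3. Col1a1 and Col1a2 lie higher in tenocytes and Col3a1 lower in each of the 3 groups.

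Genes that process collagen mostly stayed within 2-fold. Of 17 compared, the crosslinking enzyme genes Lox, Loxl3 and Loxl4 were higher in both libraries and P4ha2 and Loxl1 were lower. Lox was at 83.0 and 59.7 CPM in SD rat and chimera rat tenocytes against 20.1 and 17.5 CPM in fibroblasts (log2 1.81 and 1.52), and its relative Loxl1 was at 112 and 107 CPM against 292 and 271 CPM (log2 -1.35 and -1.30). Of 7 small leucine-rich proteoglycan genes outside the rule, none was higher in both and only Lum was lower. Lum (lumican) was at 492 and 876 CPM against 1896 and 2079 CPM (log2 -1.94 and -1.24). Dcn (decorin), which the choice of fibroblasts required, was at 8941 and 9393 CPM against 10180 and 11020 CPM. Of 20 glycoprotein genes, Matn4, Fbln7 and Fbn2 were higher and Matn2, Prg4, Fbln2, Fbln5 and Fbn1 were lower. The fibrillin genes therefore went opposite ways, with Fbn2 at 105 and 76.7 CPM against 34.1 and 33.2 CPM (log2 1.49 and 1.10) and Fbn1 at 300.2 and 179 CPM against 1179 and 1042 CPM (log2 -1.96 and -2.51).

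Genes that sense or transmit force were counted next. Of 12 mechanosensing and integrin genes, 4 were higher in both libraries and Itga11 was lower. Piezo1, a stretch-gated ion channel, was at 213 and 142 CPM in SD rat and chimera rat tenocytes against 65.3 and 42.9 CPM in fibroblasts (log2 1.63 and 1.62). Its relative Piezo2 was at 159 and 132 CPM against 32.0 and 28.9 CPM (log2 2.14 and 2.02). The genes of the collagen-binding integrin chains Itga2 and Itga10 had log2 ratios of 2.24 and 2.12 and of 2.40 and 2.26.

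Signalling genes went in both directions. Of 18 genes of the TGF-beta and BMP pathways, Tgfb3, Ltbp2, Mstn and Bambi were higher in both libraries and Ltbp4, Gdf10 and Fst were lower. Tgfb3, a ligand that acts early in tendon formation, was at 84.2 and 78.9 CPM in SD rat and chimera rat tenocytes against 34.9 and 35.5 CPM in fibroblasts (log2 1.16 and 1.05), and the inhibitor gene Fst (follistatin) was at 35.8 and 21.9 CPM against 170 and 215 CPM (log2 -2.10 and -3.04). Of 19 growth factor genes, Ccn2 and Ptn were higher and 5 were lower. Ccn2 (connective tissue growth factor) was at 535 and 660 CPM against 146 and 132 CPM (log2 1.84 and 2.28), and Igf1 was at 294 and 555 CPM against 639 and 1363 CPM (log2 -1.11 and -1.29). Of 13 Wnt genes, the inhibitor genes Wif1 and Dkk3 were higher and Sfrp1, Sfrp4 and Wnt5a lower. Of 11 matrix protease and inhibitor genes, none was higher in both and Adamts1, Adamts5 and Htra3 were lower, with Adamts5, an aggrecan-degrading enzyme, at 45.7 and 28.8 CPM against 285 and 335 CPM (log2 -2.51 and -3.33). None of 13 genes of limb position, and none of 10 cell cycle genes, passed 2-fold in both libraries.

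Markers of cells that lie next to tendon were read as a check of the label. Of 5 genes of the tendon sheath, 4 (Prg4, Tppp3, Pdgfra and Cd34) were lower than in fibroblasts in both libraries, Pdgfra by construction. The remaining gene, Dpp4, was higher in both. Of 3 cartilage marker genes compared, 2 were higher in both libraries. Acan was at 30.9 and 14.7 CPM in SD rat and chimera rat tenocytes against 0.550 and 0.203 CPM in fibroblasts, and Col2a1 was at 58.0 and 44.8 CPM against 0.423 and 0.609 CPM. The cartilage gene Matn1 and the bone gene Sp7 had no UMI in rat tenocytes, which allows up to 0.707 CPM in the SD rat and 0.631 CPM in the chimera. Matn1 had no UMI in the fibroblasts of either library and Sp7 none in those of the SD rat, so they did not separate the groups there. The 6 cartilage markers summed to 103 and 74.0 CPM in SD rat and chimera rat tenocytes against 15.7 and 18.2 CPM in fibroblasts. The 5 bone markers summed to 31.1 and 26.9 CPM against 26.7 and 38.6 CPM. Transcripts of muscle fibres were present in these cells, as in other cells of the libraries. The summed myofibre markers were at 11300 and 8700 CPM in SD rat and chimera rat tenocytes, at 8142 and 7101 CPM in fibroblasts and at 14770 and 11090 CPM in leukocytes. They made up over 5% of UMIs in 22 of 538 SD rat, 13 of 554 chimera rat and 0 of 41 mouse tenocytes, and without those cells the count of genes higher in both libraries was 309. A hemoglobin and red cell sum of 752 CPM in SD rat tenocytes rested on 1 cell, with 2580 of 3189 UMIs.

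The 41 mouse tenocytes were not used to choose the genes above, and they allowed the same genes to be read in cells of another species and of iPSC origin, against the 91 mouse fibroblasts. They shared their digestion and library with the chimera rat cells, and the rule had used the same 9 tendon genes. In the mouse comparison 184 of 4768 genes were higher in tenocytes (3.86%) and 586 were lower (12.3%), with a median log2 ratio of -0.18. Of the 292 genes outside the rule that were higher in rat tenocytes in both libraries, 123 could be compared in mouse cells. Of these, 72 were higher past 2-fold (58.5% of the rat genes compared, and 39.1% of the mouse list), 4 were lower, and the median log2 ratio was 1.25. Of the 435 lower genes, 291 could be compared, and 201 were lower (69.1%, and 34.3% of the mouse list) and 3 were higher. Of 11 other tendon genes, 8 were higher in mouse tenocytes and Htra3 was lower. These 8 held 7 of the 8 that were higher in both rat libraries, with Clec11a in place of Fibin. Thbs4 was at 8298 against 605 CPM (log2 3.77) and Col12a1 at 844 against 159 CPM (log2 2.38). Col1a1 was at 21380 against 6557 CPM (log2 1.70) and Col3a1 at 5678 against 14620 CPM (log2 -1.36). Of 10 mechanosensing and integrin genes, 3 were higher and none lower, among them Piezo1 at 217 against 53.8 CPM (log2 1.92). Emb was higher in mouse tenocytes by less, at 107.5 against 23.0 CPM (log2 2.01), and single cells held 20.4% and 33.3% of its UMIs there. In the mouse fibroblasts Tnc leaned on 1 cell, which held 212 of its 360 UMIs.

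Within the rat tenocytes, genes were ranked for spread between cells by the Fano factor, the variance over the mean of counts thinned to 2000 UMIs. The factor is not scaled for level, so abundant genes can lead, such as Col1a1 with a mean of 115.3 thinned UMIs in the SD rat. Over 2041 genes the median factor was 1.16 in the SD rat and 1.12 in the chimera rat cells, where pure counting gives 1. Genes were ordered by the poorer of their ranks in the libraries, and the first 10 were Col1a1, Acta1, Col1a2, Cxcl1, Ccl2, Mylpf, Fos, Tnnt3, Tnnc2 and Sparc. Col1a1 led with 81.9 and 60.6, followed in the SD rat by Col1a2 with 42.0 (34.8 in the chimera). Apoe, the gene of apolipoprotein E, had a high factor in the chimera alone (39.4, against 8.28 in the SD rat). The chemokine genes Cxcl1 and Ccl2 had factors of 34.8 and 31.3 and of 22.6 and 30.2. Acta1, Mylpf, Tnnt3 and Tnnc2 encode parts of the muscle fibre, and the myofibre sums above stand beside them.

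Several of these genes varied together from cell to cell. Correlations are given as descriptions over 506 SD rat and 553 chimera rat tenocytes, on log counts of cells thinned to the same total, so that a gene with many UMIs takes from the others. Of 47895 pairs among 347 genes, 256 had Pearson's r above 0.3 in both libraries and 100 had r below -0.3 in both. Col1a1 went with Col1a2 (r 0.94 and 0.91) and with Fmod (0.65 and 0.60), and Dcn went with Kera (0.62 and 0.65). Against this block stood Emb and Chodl. Emb went with Chodl (0.57 and 0.49), with the heparin-binding cytokine gene Ptn (0.68 and 0.57) and with the retinoid-binding protein gene Crabp1 (0.58 and 0.49), and Col1a1 went against Emb (-0.49 and -0.59) and against Chodl (-0.49 and -0.58). In the 41 mouse tenocytes r was -0.57 between Chodl and Col1a1 and 0.09 between Chodl and Emb.

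To describe this in levels, the cells were divided by Emb and Chodl UMIs in the thinned counts, a division chosen after the correlations had been seen. Both were found in 105 of 506 SD rat tenocytes (20.8%; 17.3 to 24.6) and in 140 of 553 chimera rat tenocytes (25.3%; 21.7 to 29.2). Neither was found in 308 SD rat and 281 chimera rat tenocytes, and the remaining 93 and 132 cells had 1 of the pair. In leukocytes, where Emb is also expressed, thinned Chodl was found in 1.03% of SD rat and 1.14% of chimera rat cells. Cells with both had median depths of 7781 and 8326 UMIs, below the 9493 and 11500 UMIs of cells with neither. Since Emb and Chodl chose the cells, the values that follow are descriptions too.

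Several of the named genes were higher in the cells with both. Col22a1, a collagen known from the muscle-tendon junction, was at 580 CPM in SD rat cells with both and 5.33 CPM in those with neither, and at 346 and 6.98 CPM in the chimera rat cells. Itga10 was at 123 and 2.49 CPM in the SD rat and at 66.0 and 3.84 CPM in the chimera. Crabp1 was at 1010 and 51.1 CPM in the SD rat and at 878 and 63.5 CPM in the chimera. Cells with 1 of the pair lay in between for all 3 genes, with Col22a1 at 153 and 166 CPM in the SD rat and the chimera, Itga10 at 44.9 and 37.5 CPM and Crabp1 at 339 and 309 CPM. Ptn (3835 and 183 CPM in the SD rat, 2264 and 264 CPM in the chimera) and the matricellular gene Postn (5592 and 349 CPM, 2838 and 491 CPM) followed the same order, as did Fn1, Col4a1 and the growth inhibitor gene Mstn. Other genes of the same lists had the opposite order, among them the integrin genes Itga2, at 9.35 and 91.6 CPM in the SD rat and 13.6 and 74.0 CPM in the chimera, and Itgb5 (log2 ratios of -1.72 and -1.60), and the BMP inhibitor gene Bambi (log2 ratios of -2.67 and -1.76). Of the rule genes, Scx was higher in cells with both, at 763 and 307 CPM in the SD rat and 815 and 307 CPM in the chimera.

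Other named genes were higher in the cells with neither. Of the 9 fibrillar collagen genes, Col1a1, Col1a2 and Col11a2 were higher there in both libraries, whereas 5 (Col5a1, Col5a2, Col5a3, Col24a1 and Col27a1) were higher in the cells with both, by log2 ratios from 0.23 to 2.19. Col1a1 was at 20920 CPM in SD rat cells with both and 94490 CPM in those with neither, and at 11690 and 66230 CPM in the chimera. Fmod was at 1974 and 5931 CPM in the SD rat and at 2159 and 5230 CPM in the chimera, and Kera at 1467 and 4719 CPM and at 1491 and 4418 CPM. Chad, at 18.7 and 566 CPM in the SD rat and 3.14 and 542 CPM in the chimera, was lowest in the cells with both, and was at 150.2 and 154 CPM in cells with 1 of the pair. Comp had the same order, at 2.67 and 755 CPM in the SD rat and 23.0 and 365 CPM in the chimera, with 152 and 92.2 CPM in cells with 1 of the pair. Angptl7, Col11a2, Igfbp5 and Rbp4 had the same order, with Igfbp5, a binding protein of insulin-like growth factors, at 36.1 and 2276 CPM in the SD rat and 77.5 and 2551 CPM in the chimera. Of 15 immediate early genes, which dissociation can induce, 14 were also higher in the cells with neither in both libraries and Hsph1 was lower. Atf3, for example, was at 231 and 1628 CPM in the SD rat and 619 and 1895 CPM in the chimera. The part of dissociation in this division was not tested. Tnmd itself was close in both kinds of cells, at 3215 and 2860 CPM in the SD rat and 3216 and 3489 CPM in the chimera. The 12 genes that stood highest against fibroblasts were therefore not all highest in the same cells, since Emb, Chodl, Crabp1 and Col22a1 lay on one side and Col11a2 and Angptl7 on the other.

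**Figure D4:**
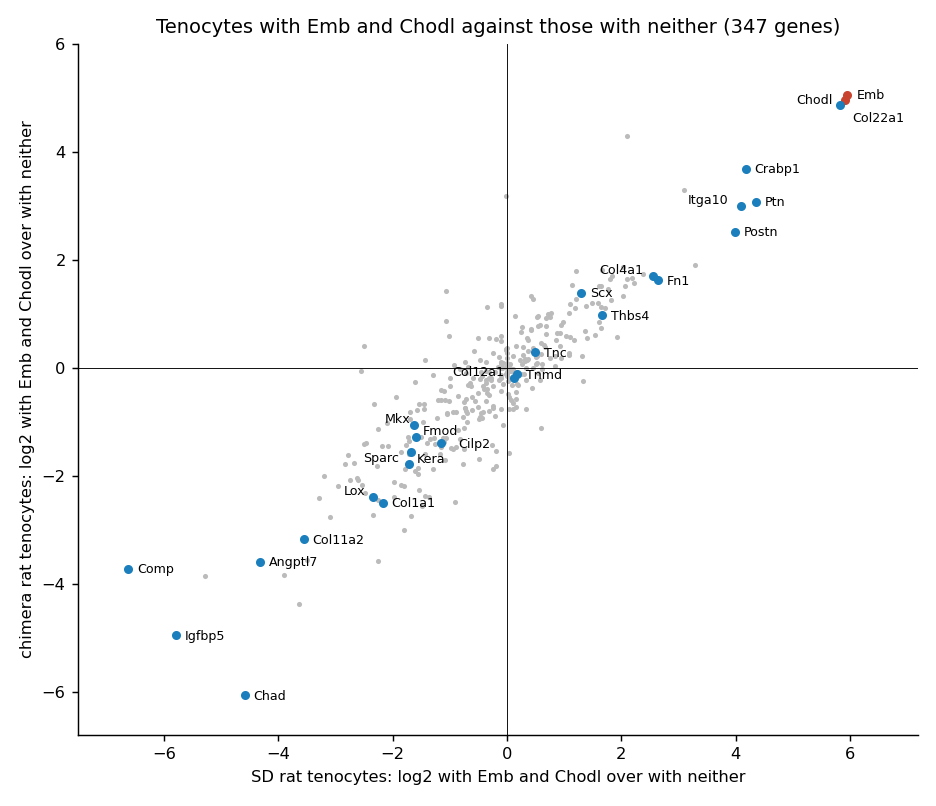
Log2 ratio of CPM in tenocytes with both Emb and Chodl over those with neither, in the SD rat (x axis) and in rat cells of the chimera (y axis), for 347 genes. Emb and Chodl chose the cells. Col22a1, Crabp1, Ptn and Postn lie in the upper right and Chad, Comp, Igfbp5 and Angptl7 in the lower left, while Tnmd lies near 0 on both axes.

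Genes of limb position were read in single tenocytes, as Pitx1 and Tbx4 are hindlimb genes and Tbx5 is a forelimb gene. Pitx1 or Tbx4 had a UMI in 78 of 538 SD rat tenocytes (14.5%; 11.6 to 17.8), in 32 of 554 chimera rat tenocytes (5.78%; 3.98 to 8.06) and in 6 of 41 mouse tenocytes (14.6%; 5.57 to 29.2). In leukocytes, Pitx1 had a UMI in 0.493% of SD rat and 0.502% of chimera rat cells. Tbx5 was found in 2 SD rat, 0 chimera rat (which allows a share of up to 0.542%) and 4 mouse tenocytes, and 1 mouse cell had both kinds. The muscles pooled from each animal are not listed in the sources used here, so their mix and the library cannot be told apart.

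Rat tenocytes of the chimera were then compared with those of the SD rat, to ask whether the host's own cells differed beside mouse cells. Reads of the chimera had been mapped to rat and mouse genomes together and those of the SD rat to the rat genome alone, and this touched the counts. Of 8520 genes, 109 were higher in the chimera (1.28%) and 61 were lower (0.716%), so that 64.1% of the 170 were higher, and the median log2 ratio was -0.03. With rat rows alone, 24.8% were higher (31 against 94 lower, of 8336 genes). Of the 109 higher genes, 79 had over 50% of their chimera UMIs on mouse rows, and all of the 10 highest (Cmss1, Lars2, Gphn, Hmgb1, Nmnat2, Camk1d, Rpl35a, Fgf23, Tpd52l1 and Mcmdc2) had 93.1 to 100% there. Only genes past 2-fold both with summed rows and with rat rows are therefore described, 25 higher and 49 lower, a reading added after the data had been seen. It addresses UMIs placed on mouse rows alone, and any other effect of the unlike references on these genes was not tested. Of these, 15 and 32 did not owe over 20% of their UMIs in the higher group to 1 cell.

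Tendon genes of the rule stayed within 2-fold between the libraries, with the exception of Comp. The rule chose both groups by these genes, and few genes of any kind passed 2-fold, so this only describes the selected cells. Of 9 rule genes, none was higher in the chimera and Comp was lower, from 528 CPM (506 to 550) to 243 CPM (229 to 257), a log2 ratio of -1.11, against 8.67 and 8.38 CPM in fibroblasts. Angptl7 was lower as well, from 378 to 145 CPM (log2 -1.35), and so were the hindlimb gene Pitx1, from 17.7 to 5.26 CPM (log2 -1.15), and the Wnt inhibitor gene Sfrp4, from 91.5 to 32.8 CPM (log2 -1.35). Within the cells with neither Emb nor Chodl the levels of both were lower too, with Comp at 755 and 365 CPM and Angptl7 at 523 and 220 CPM. None of the 9 fibrillar collagen genes passed 2-fold, where 1.28% of all genes were higher and 0.716% lower. Their median log2 ratio was -0.43, against -0.03 over all genes. Ostn, encoding the secreted peptide osteocrin, was the gene with the highest ratio among the 15, from 22.9 CPM (97 UMIs) to 117 CPM (557 UMIs, log2 2.13), and was near 0 in fibroblasts at 0.423 and 0.609 CPM. The interferon-response factor gene Irf1, from 178 to 401 CPM (log2 1.15), the stress gene Ddit3, from 177 to 372 CPM (log2 1.05), and the immediate early gene Ier2, from 295 to 601 CPM (log2 1.01), were higher in the chimera. In fibroblasts the same genes were higher by less, with Irf1 at 292 and 507 CPM (log2 0.79), Ddit3 at 165 and 205 CPM (log2 0.30) and Ier2 at 327 and 643 CPM (log2 0.97).

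Some genes that were lower in the chimera were lower in its fibroblasts as well. Hs6st3, a heparan sulfate sulfotransferase gene, was at 921 CPM in SD rat and 1.05 CPM in chimera rat tenocytes, and at 803 and 5.43 CPM in the fibroblasts of the same libraries. Glis1 was at 196 and 12.0 CPM in tenocytes and 201 and 9.44 CPM in fibroblasts. The fetal growth factor gene Igf2 was at 117 and 39.7 CPM in tenocytes (log2 -1.45) and 360 and 66.2 CPM in fibroblasts (log2 -2.36). Of the 32 lower genes, 10 were past 2-fold lower in fibroblasts too, and of the 15 higher genes, 2 were higher there too. Between the fibroblasts of the libraries, 0.197% of all genes were lower and 1.16% higher. Those shares used summed rows alone, without the reading by rat rows and the limit on single cells, so the measures are unlike. Animal, library and mapping reference cannot be told apart in any of these differences.

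Mouse and rat tenocytes of the chimera came from the same digestion and library, and their comparison asked how far a gene's level went with the species of the cell. The gene models of the species differ, so a ratio of levels can come from the annotation. The fibroblast ratio is given beside it for most of the genes described where it could be computed. Of 7314 genes, 867 (11.9%) were higher in mouse tenocytes and 960 (13.1%) were lower. Between the fibroblasts 13% were higher in mouse cells and 8.11% were lower. Over 7243 genes compared in both cell types, 1784 passed 2-fold in tenocytes, of which 917 passed it the same way in fibroblasts and 40 the opposite way. The mouse genes of highest ratio, led by Mt1 and Rpl37, were of the shared kind. Mt1 (metallothionein 1) was at 23.5 CPM in rat and 10840 CPM in mouse tenocytes (log2 8.57), and its log2 ratio in fibroblasts was 9.33. Rpl37, with 20.0 and 3152 CPM, was at only 0.236 CPM in the SD rat, where no mouse rows exist. The other 8 highest were Cd81, Rpl35a, Ctsz, Ier3ip1, Rnase4, Mfge8, Selenok and Manf.

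For some tendon genes the species ratio differed in value between tenocytes and fibroblasts, and no test of this was possible with 1 library. Wif1 was at 70.2 CPM in chimera rat tenocytes (62.9 to 78.2) and 818 CPM in mouse tenocytes (741 to 902), a log2 ratio of 3.45, and had 0 UMIs in mouse fibroblasts, an upper limit of 3.15 CPM. Chad was higher in mouse tenocytes (log2 1.75) and too low in fibroblasts for a ratio. Kera was lower (log2 -1.05) but higher in mouse fibroblasts (log2 2.01), where 1 cell held 33 of its 37 UMIs. Crabp1 was at 275 CPM in chimera rat tenocytes (260 to 290) and 19.9 CPM in mouse tenocytes (9.55 to 36.6; log2 -3.49), with a fibroblast log2 ratio of -0.37 that rested on 7 mouse UMIs. Emb was lower in mouse tenocytes (log2 -2.10) but higher in mouse fibroblasts (log2 1.91), where 1 cell held 33.3% of its UMIs. Rbp4, encoding the plasma retinol-binding protein, had a single UMI in the 41 mouse tenocytes, which is 1.99 CPM (0.0504 to 11.1), against 482 CPM in chimera rat tenocytes (462 to 502), and its log2 ratio in fibroblasts was -0.61. Lox had log2 ratios of 4.57 in tenocytes and 3.85 in fibroblasts, and Col1a1 of -1.14 and -1.32. Comp had 2.43 and 2.85, but 1 mouse fibroblast held 95 of its 107 UMIs there.

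Prg4, the gene of the lubricant lubricin, stood out by its level in mouse tenocytes. It was at 93.1 CPM in SD rat, 184 CPM in chimera rat and 5457 CPM in mouse tenocytes, and 1 mouse cell held 1433 of the 2740 UMIs. Without that cell the level was 2917 CPM, and 31 of the 41 mouse tenocytes had a Prg4 UMI. Of the 5 tendon sheath genes compared, Prg4 among them, 3 (Prg4, Pdgfra and Cd34) were higher in mouse than in chimera rat tenocytes and none was lower. Between the fibroblasts of these species 3 (Prg4, Cd34 and Dpp4) were likewise higher in mouse cells and none was lower, with Prg4 at 532 and 2060 CPM (log2 1.94). The part of sheath cells was not tested. The other 8 genes with the lowest mouse ratios, beside Rbp4 and Nnat, were Cep295nl, Rnasek, Cxcl10, Npb, Ptp4a1, Pcsk1n, C1qtnf5 and Zc3h10. The interferon-induced chemokine gene Cxcl10 was at 425 CPM in chimera rat and 7.97 CPM in mouse tenocytes (log2 -5.05), against a log2 ratio of 1.82 in fibroblasts. Nnat, an imprinted gene, had 0 UMIs in mouse tenocytes and 143 CPM in chimera rat tenocytes, where 88.8% of its UMIs lay on the mouse row. The log2 ratio of Nnat in fibroblasts was -0.30, and 1 mouse fibroblast held 50% of the mouse UMIs there.

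**Figure D5:**
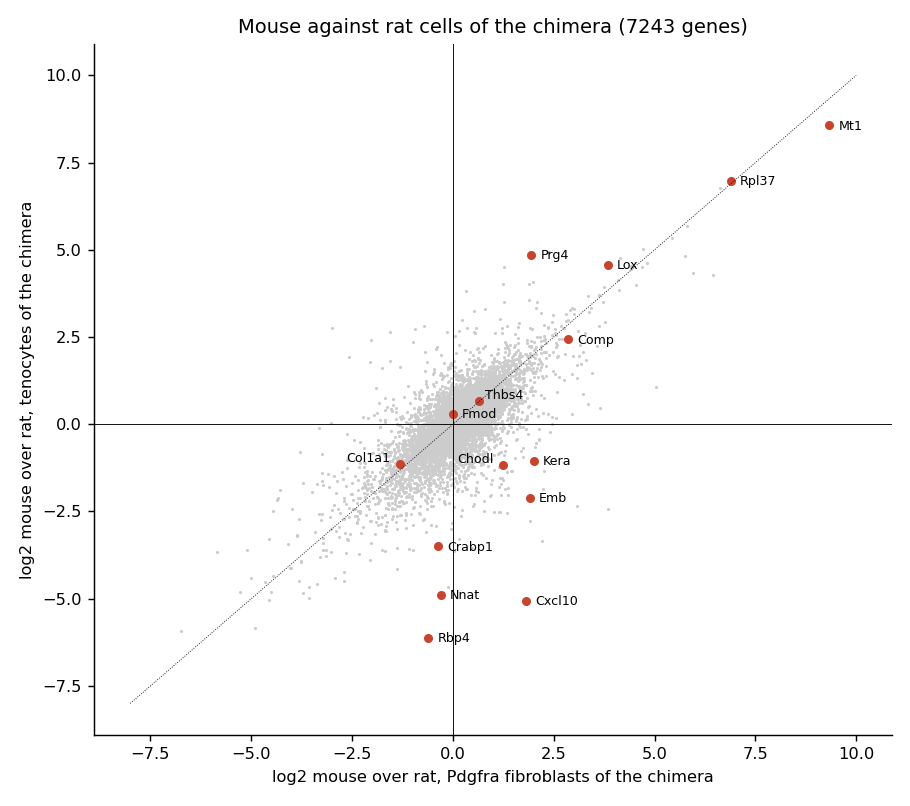
Log2 ratio of CPM (5 CPM added) of mouse over rat cells of the chimera in Pdgfra fibroblasts (x axis) and in tenocytes (y axis), for the 7243 genes compared in both. The dotted line marks equal ratios. Mt1, Rpl37, Lox and Comp lie near it, whereas Rbp4, Nnat, Cxcl10 and Emb lie well below it and Prg4 above it.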

How the data were processed

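The deposited values are UMI counts per gene and barcode, which the authors made with Cell Ranger 7.1.0 from 10x 3′ v3.1 libraries on builds mRatBN7.2 and GRCm39, per the labels. The chimera table has 23373 rat rows, 25906 mouse rows and 1 EGFP row, the SD rat table the same rat rows alone. The libraries held 13299 barcodes with 118872850 UMIs (chimera) and 10117 with 70957559 UMIs (SD rat). Rows of a symbol were added, and CPM was taken over the 16235 symbols of both species. Each group was 1 library, so no test was run. The members, lists and comparisons were chosen with earlier results of these data known. Named genes were those of the rule, 2 to 4 examples per list, the 12 highest and 8 lowest against fibroblasts by the smaller ratio, the 10 highest and 10 lowest in the other comparisons (at least 50 UMIs, no cell with over 20% of them) and the 10 highest Fano factors. Others, such as Ostn, Irf1 or Ddit3, were chosen after their values were seen. Doublets marked by Scrublet (scanpy 1.11.5; 2.65% of chimera and 1.84% of SD rat barcodes) were kept, and left out as an alternative. Other alternatives changed the cell limits, rule, species limits, depth, pseudocount, gene minimum, denominator, rows and comparison cells. Ratios (numpy 2.4.6) were tested on simulated data, and intervals came from scipy 1.17.1. RefSeq windows of Col1a1 and Scx were not used here.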

Additional observations from a re-analysis of the deposited data

Results flagged for a closer look

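Of 4696 genes compared in rat and mouse cells, 7 were past 2-fold one way between tenocytes and fibroblasts in both rat groups and past 2-fold the opposite way in mouse cells. The difference between the species was not tested, and the log2 ratios are given in the order SD rat, chimera rat and chimera mouse cells. Rbp4, the retinol carrier gene, had ratios of 2.49, 2.53 and -2.985, from 1 UMI in mouse tenocytes and 59 in mouse fibroblasts. The chemokine gene Cxcl2 had ratios of 1.55, 1.16 and -4.269, and 1 mouse fibroblast held 111 of its 287 UMIs there. For the cystine transporter gene Slc7a11 they were 2.61, 2.70 and -1.381, with 8 UMIs in mouse tenocytes. For the surface peptidase gene Dpp4 they were 1.39, 1.49 and -1.021, with 19 UMIs in mouse tenocytes. Opposite in sign were Prg4, with -2.78, -1.51 and 1.403, the galectin gene Lgals3, with -2.16, -2.11 and 2.340, and the oxysterol hydroxylase gene Cyp7b1, with -2.84, -3.48 and 1.027. The mouse values of the last 3 leaned on single cells, which held 1433 of 2740 Prg4 UMIs, 48 of 84 Lgals3 UMIs and 59 of 62 Cyp7b1 UMIs in mouse tenocytes.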

How the results depend on the processing

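No paired analysis was possible because each group was a single library. The species limits moved the most values. With limits of 10 and 90% mouse UMIs, tenocytes were 2.02% of chimera rat barcodes and the mouse share of tenocytes was 39.4%, since most rat tenocytes, with a median of 13.1% mouse UMIs, became mixed. Genes past 2-fold were then 619 between chimera and SD rat tenocytes (28.6% higher, main count 170) and 1121 between mouse and rat tenocytes (61.3% higher, main count 1827), from 60 rat and 39 mouse tenocytes. The SD rat share was 5.38% with at most 10% mitochondrial UMIs and 5.47% when 4 tendon genes were required, and the cause of the first was not tested. The chimera rat share was 7.63% when Ptprc and Pecam1 were allowed, an alternative chosen after seeing the data. The count between the rat tenocytes was 286 with 1 CPM added, 103 with 10 CPM added and 88 with at least 200 UMIs, and that between mouse and rat tenocytes was 788 with at least 200 UMIs, where fewer genes were compared. Camk1d reversed between the libraries with rat rows alone (log2 -0.29), as its chimera UMIs on mouse rows were then left out. The count of genes higher in tenocytes than in fibroblasts lay between 209 and 411 over its 12 alternatives (main count 301). Of all other values recomputed, 57 of those that answer a comparison and 884 of those of single genes stayed within their interval or within 1.5 times the count, and 81 of single genes did not. Depth limits the 41 mouse tenocytes most, as 3 UMIs there amount to 5.97 CPM.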

Other observations

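Immediate early genes, which dissociation can induce, were read as a list. Between chimera and SD rat tenocytes the 15 genes compared had a median log2 ratio of 0.33, with 1 past 2-fold (Ier2). Fos was at 2115 CPM in SD rat, 4054 CPM in chimera rat and 1764 CPM in mouse tenocytes, and at 1933, 5213 and 2409 CPM in the fibroblasts of the same groups. Egr1, which is also a tendon regulator, was at 656, 1193 and 659 CPM in tenocytes and 1028, 2130 and 1395 CPM in fibroblasts. Mouse rows held 31.3% and 30.3% of the Fos UMIs in chimera rat tenocytes and fibroblasts, and 4.67% and 4.62% of those of Egr1. With rat rows alone, Fos was at 2995 and 3901 CPM and Egr1 at 1222 and 2182 CPM in these cells, and the part of the mapping was not tested. Within tenocytes Fos and Jun varied together (r 0.75 in the SD rat and 0.78 in the chimera rat cells), as did Ccl2 and Cxcl1 (0.48 and 0.41).

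The 42 mixed tenocytes, which entered no comparison, had a median of 6852 UMIs and 22.7% mouse UMIs. Their levels were 6024 CPM for Thbs4, 1428 CPM for Cilp2 and 542 CPM for Comp. Mki67, a gene of dividing cells, was at 18.2 CPM in SD rat and 18.1 CPM in chimera rat tenocytes, in 3.16% and 4.33% of the cells, and had 0 UMIs in the 41 mouse tenocytes, which allows a share of up to 7.32% of cells.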
